A study of Mus musculus with 18 samples.

Results

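The genes described here encode the machinery that loads, docks and releases synaptic vesicles, including the members that set the ribbon synapses of the retina apart from conventional synapses. They were chosen by name, as 39 of the 55487 genes in the deposited count table, and all 39 were found there. The libraries come from mouse retinas dissociated and flow sorted into live CD11b-negative cells, called retina here, and live CD11b-positive cells, called microglia. CD11b is a surface protein of myeloid cells, and the dye DAPI marked dead cells. The knockout group (Bmal1-mg/-mg, KO) lacked the circadian clock gene Bmal1 in microglia and had 5 libraries per fraction. The control group (Bmal1f/f) carried floxed Bmal1 copies without that deletion and had 4 libraries per fraction, for 18 libraries in all. Which promoter or recombinase drove the deletion, and the age of the mice, are not given in the sources used here, and the retina cells are not the cells that the genotype name gives as deleted. The labels number the replicates but do not say whether each is its own mouse. The p-values therefore reflect the spread among these libraries, which may in part be technical.

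A synaptic vesicle is filled with transmitter, tethered at the active zone, primed, fused when calcium enters, and recycled. Fusion is driven by SNARE proteins on the vesicle and the plasma membrane, complexins clamp or assist the assembled SNAREs, synaptotagmins sense calcium, and NSF with SNAP proteins pulls used SNAREs apart. Photoreceptors and bipolar cells release glutamate continuously at ribbon synapses, where a plate built of RIBEYE, a product of Ctbp2, holds vesicles. Ribbon synapses of the mouse retina use syntaxin 3 and the complexins 3 and 4, and lack synapsins, whereas the conventional synapses of amacrine cells use syntaxin 1, complexins 1 and 2 and synapsins.

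Total counts ran from 32277156 to 47563119 per library, and values below are CPM, counts scaled to library size over all 18 libraries, so that 3 counts stood for 0.0631 to 0.0929 CPM. The libraries were made by amplifying nanogram amounts of RNA, so a count is not an independent molecule. Genes with a count numbered 18761 to 19713 in KO retina and 16510.0 to 18715 in control retina, without overlap. The targeted gene, listed as Arntl, had 2.10 to 24.1 CPM in KO microglia and 9.90 to 27.0 CPM in control microglia, with edgeR adjusted p = 0.999 for a log2 change of -0.44 (SE 0.62). Its retina levels were 80.0 to 124 CPM in KO and 94.6 to 137 CPM in control libraries (log2 change -0.35, SE 0.17, edgeR adjusted p = 0.392). The count covers the whole gene, and genotypes were taken as labelled. Replicate 1 of every group had 0 reads of the Y-linked genes Ddx3y, Eif2s3y, Kdm5d and Uty, and every other library had reads of all 4. Among those replicates, Xist, which is made from the inactive X chromosome, had 12.6 CPM in KO retina and 0.0766 CPM in control retina, and 40.3 CPM in KO microglia and 42.0 CPM in control microglia. Control retina replicate 1 thus held almost no Xist, unlike the microglia library of the same number. Markers of microglia summed to 64533 to 70178 CPM in KO microglia and 64743 to 72287 CPM in control microglia, against 8.16 to 18.1 CPM in KO retina and 14.1 to 25.4 CPM in control retina. Markers of rods, the most numerous photoreceptors, summed to 133995 to 166119.9 CPM in KO retina and 169195 to 246605 CPM in control retina, and to 5991 to 13958 CPM in KO microglia and 8413 to 12367 CPM in control microglia, so the microglia fraction held rod RNA.

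In the retina fraction of KO mice, Cplx3, Sv2a and Syn1 were 2.45- to 2.99-fold higher than in controls, while the abundant members Slc17a7, Snap25, Vamp2 and Stx3 had overlapping groups and did not pass the test. Cplx4, also abundant, had overlapping groups and did not pass the edgeR test. DESeq2, which called 7.75% of all genes, called Cplx4 lower in KO (log2 change -0.48, DESeq2 adjusted p = 0.0148). Of the 39 members, 36 passed the filter on low counts in this comparison. Of these, 3 rose and 0 fell at an edgeR quasi-likelihood adjusted p (Benjamini-Hochberg over 15332 genes) under 0.05, where 1.66% of all genes tested were called (1.34% higher and 0.326% lower). The median log2 change of the 36 members was 0.35, with 26 above 0. Over all genes tested the median was 0.00, with 7696 of 15332 above 0. An unadjusted edgeR p under 0.05 was met by 12 of the 36 members and by 14.2% of all genes. With the level of rod markers as a covariate, the members' median was 0.18. Summed rod markers did not overlap between the genotypes in retina, so that fit cannot separate their level from genotype. Stx1a, Syt2 and Sv2c did not pass the filter.

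The upstream sequences of the 3 members that rose are shown here, since the short motifs in them differ. RefSeq promoters on GRCm38.p6 were found for 31 of the 39 members, and the 250 bases before each start were searched on both strands. Each is printed 5′ to 3′ on the gene's strand, up to the first base that GENCODE M21 places in the gene, with motif matches in capitals. The Cplx3 window is chr9:57606282-57606531, minus strand, the Sv2a window chr3:96180977-96181150, plus strand and the Syn1 window chrX:20921005-20921168, minus strand.
Cplx3: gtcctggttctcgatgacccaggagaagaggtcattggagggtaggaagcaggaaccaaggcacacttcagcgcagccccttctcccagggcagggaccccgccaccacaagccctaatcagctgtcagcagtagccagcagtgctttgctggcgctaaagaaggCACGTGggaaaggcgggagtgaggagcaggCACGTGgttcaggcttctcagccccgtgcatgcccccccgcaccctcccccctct
Sv2a: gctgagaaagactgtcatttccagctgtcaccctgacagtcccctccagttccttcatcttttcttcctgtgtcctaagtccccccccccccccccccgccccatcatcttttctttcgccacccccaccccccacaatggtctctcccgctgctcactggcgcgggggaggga
Syn1: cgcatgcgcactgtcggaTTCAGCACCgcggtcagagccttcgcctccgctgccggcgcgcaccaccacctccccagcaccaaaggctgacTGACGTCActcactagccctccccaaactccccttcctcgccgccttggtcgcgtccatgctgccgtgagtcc

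The capitals in Cplx3 are the E-box CACGTG, the letters that BMAL1 with its partner CLOCK, among other factors, is known to bind. It stands there 2 times, starting 85 and 55 bases before the RefSeq start, and 135 of 27025 genes with a promoter (0.4995%) held it at least 2 times. One or more E-boxes stood in 6.86% of these genes and in 4 of the 31 members, namely Cplx3, Nsf, Sv2b and Unc13b. In Syn1 the first capitals are TTCAGCACC, a stretch of the RE1 element bound by the neuronal gene repressor REST, which stood in 0.348% of genes with a promoter. The next are TGACGTCA, the cyclic AMP response element, which stood in 1.77%. No other member searched held either. Sv2a held none of the motifs searched. The photoreceptor motif TAATCC, a core bound by CRX, stood in 7.21% of genes and in the members Ctbp2, Sv2b and Syp. A match describes these letters only and says nothing of binding.

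Cplx3 (ENSMUSG00000039714, chr9:57599992-57606281, minus strand, GRCm38) encodes complexin 3, which in mouse retina is found at ribbon synapses and in some amacrine cells. It had 875, 954, 1089, 1023 and 788 CPM in KO retina and 376, 153, 340.0 and 358 CPM in control retina. All 5 KO libraries stood above all 4 controls, among which replicate 2 was lowest. The means were 946 ± 119 CPM in KO and 307 ± 103 CPM in controls (SD, n = 5 and 4), a log2 change of 1.58 (SE 0.25) at an edgeR adjusted p of 0.019, or 2.99-fold. Leaving out control replicate 2 gave 1.37, and leaving out KO replicate 3 gave an edgeR adjusted p of 0.0524, which misses the threshold.

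Cplx4 (ENSMUSG00000024519, chr18:65955722-65970237, minus strand) encodes complexin 4, the complexin of photoreceptor ribbon synapses. It had 1039, 867, 892, 799 and 1188 CPM in KO retina and 1257, 1570.4, 1302 and 1153 CPM in control retina. Replicates 1 to 4 of the KO libraries lay below every control, and KO replicate 5 lay above control replicate 4, so the groups overlapped. The log2 change was -0.50 (SE 0.14, edgeR adjusted p = 0.114), the other way from Cplx3. The conventional complexins were scarce. Cplx1 had 17.8, 24.3, 20.9, 7.97 and 10.9 CPM in KO retina and 0.0192, 12.9, 11.7 and 3.49 CPM in control retina, and Cplx2 had 1.12 to 5.86 CPM in KO and 0.140 to 6.62 CPM in control libraries, both with overlapping groups.

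Within each library, the ratio of Cplx3 to Cplx4 counts was 0.664 to 1.28 in KO retina (median 1.10) and 0.0976 to 0.311 in control retina (median 0.280). The lowest KO library thus stood above the highest control. The same held for Sv2a over its paralogue Sv2b, with 0.309 to 0.410 in KO retina and 0.121 to 0.201 in control retina, and for Syn1 over Syp, with 0.102 to 0.149 in KO retina and 0.0284 to 0.0737 in control retina. These ratios use counts not divided by length and carry no test. Their top genes are the members called in retina, so the separation repeats those calls. Stx1a over Stx3, also computed, was 0 to 0.00299 in KO retina and 0 in control retina, so its groups overlapped.

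**Figure D1:**
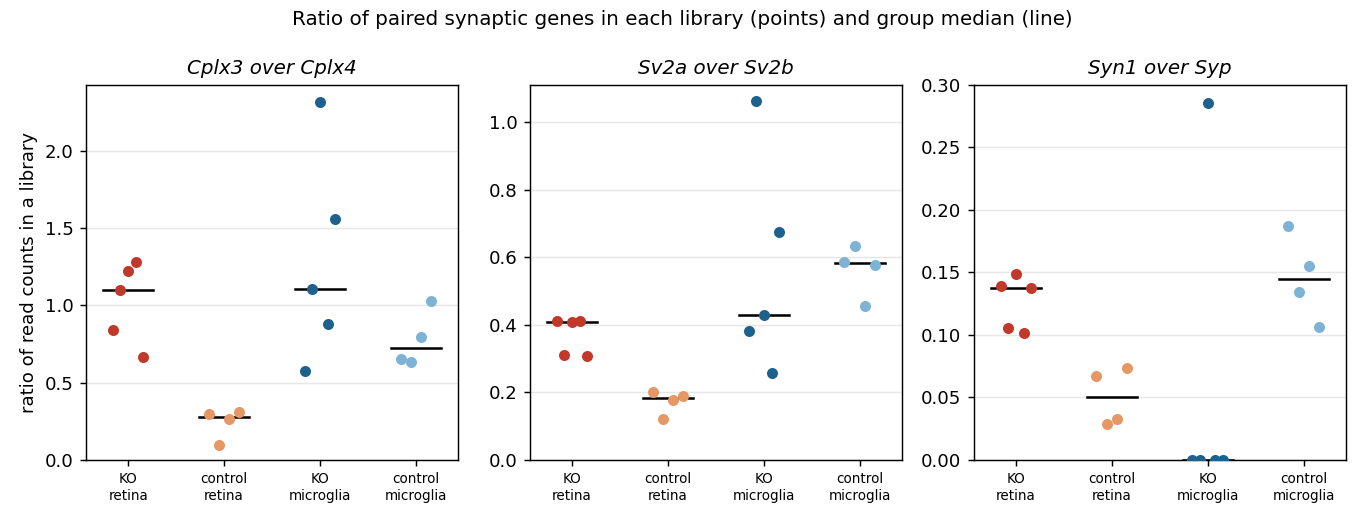
Ratio of read counts of paired synaptic genes in each library (points, linear axes from 0), with the group median as a line, for KO retina, control retina, KO microglia and control microglia. In all 3 panels the KO retina points lie above the control retina points, as in Cplx3 over Cplx4, where medians were 1.10 in KO and 0.280 in controls.

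Of the SNARE proteins, 4 of 5 were tested in retina, with 0 called by edgeR, DESeq2 or voom and 0 at an unadjusted p under 0.05. Over all genes tested in retina, 14.2% had an unadjusted edgeR p under 0.05, and DESeq2 called 7.75%. Stx3 (syntaxin 3, the plasma membrane SNARE of ribbon synapses) had 1547, 1576, 1378, 1439 and 1628 CPM in KO retina and 1631, 2099, 1707 and 1504 CPM in control retina (log2 change -0.24, SE 0.11, edgeR adjusted p = 0.351). Stx1a (syntaxin 1A, of conventional synapses) had 352 reads over the 5 KO libraries, from 0 to 4.71 CPM, and 0 reads in the 4 control libraries. Snap25, the plasma membrane partner of both syntaxins, had 1019, 944, 1107, 1070.4 and 1049 CPM in KO retina and 1247, 1177, 929 and 864 CPM in control retina (log2 change -0.064, SE 0.12, edgeR adjusted p = 0.899). The KO values lay inside the range of the controls. Vamp2 (synaptobrevin 2, the vesicle SNARE) had 1047 to 1257 CPM in KO and 1078 to 1290.1 CPM in control retina (log2 change -0.035, SE 0.08, edgeR adjusted p = 0.926). Its relative Vamp1 reached at most 9.87 CPM in KO and 5.64 CPM in control retina.

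Nsf, the ATPase that disassembles used SNARE complexes, had 1306, 1235, 1406, 1238 and 1112 CPM in KO retina and 1142, 934, 892 and 796 CPM in control retina. Only KO replicate 5 reached down into the controls, below control replicate 1, and the log2 change of 0.38 (SE 0.11) did not pass the test (edgeR adjusted p = 0.145). Napb, the neuronal adaptor that brings NSF to SNAREs, had 329.8 to 429.6 CPM in KO and 232 to 401 CPM in control retina, which overlapped (log2 change 0.25, SE 0.16).

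Among the synaptotagmins, 5 of 6 were tested and 0 were called by edgeR, with 4 at an unadjusted p under 0.05 (14.2% of all genes) and 3 called higher by DESeq2 (7.75% of all genes called). Those 3 were Syt3, Syt4 and Syt11, which were higher in every KO than in every control retina library. Syt1, the fast calcium sensor of neurotransmitter release, was the most abundant, with 889, 879, 1062, 825 and 808 CPM in KO retina and 832, 690.3, 694 and 577 CPM in control retina (log2 change 0.31, SE 0.12, edgeR adjusted p = 0.27). Syt3, a high-affinity calcium sensor, had 22.9, 24.8, 55.1, 34.3 and 24.3 CPM in KO and 10.9, 11.9, 6.75 and 15.1 CPM in control retina (log2 change 1.49, SE 0.35, edgeR adjusted p = 0.0772). Of the members without a call it had the smallest adjusted p. Syt4, a synaptotagmin that does not bind calcium in its first C2 domain in mammals, had 42.2, 45.8, 70.7, 54.8 and 46.5 CPM in KO and 24.0, 9.04, 16.7 and 30.7 CPM in control retina (log2 change 1.32, SE 0.34, edgeR adjusted p = 0.0969). Syt11, a close relative of Syt4, had 117, 152, 175, 166 and 147 CPM in KO and 71.4, 24.2, 82.3 and 95.2 CPM in control retina (log2 change 1.10, SE 0.34, edgeR adjusted p = 0.151). As for Cplx3, control replicate 2 was the lowest retina library for Syt4 and Syt11, and it was also the lowest for Sv2a and Syn1. That library had the fewest genes with a count of all retina libraries (16510). Syt5 overlapped at 0.0255 to 2.93 CPM in KO and 0.0560 to 14.3 CPM in controls, and Syt2 had 418 reads over the 5 KO libraries, mostly in replicates 3 and 4, and 0 in controls.

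Sv2a (ENSMUSG00000038486, chr3:96181151-96195521, plus strand) encodes synaptic vesicle glycoprotein 2A, a membrane protein of vesicles and the target of the drug levetiracetam. It had 416, 312, 451, 359.7 and 264 CPM in KO retina and 179, 115, 137 and 139.7 CPM in control retina. The lowest KO library stood well above the highest control. The means were 361 ± 75.9 CPM in KO and 143 ± 26.6 CPM in controls (SD, n = 5 and 4). The log2 change was 1.29 (SE 0.19) at an edgeR adjusted p of 0.0141, or 2.45-fold, and Sv2a stayed called without any one library. The call was lost with a replicate block (edgeR adjusted p = 0.125) and with the count of detected genes as a covariate (edgeR adjusted p = 0.41). It was also lost in a fit of all 18 libraries (edgeR adjusted p = 0.229). The paralogue Sv2b, the more abundant form, had 855 to 1107 CPM in KO and 739 to 951 CPM in control retina (log2 change 0.17, SE 0.11, edgeR adjusted p = 0.565). Sv2c was below 1 CPM in all 9 retina libraries.

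The other vesicle membrane proteins did not pass the test. Syp (synaptophysin, an abundant vesicle protein of both synapse types) had 828 to 1104 CPM in KO and 756 to 916 CPM in control retina (log2 change 0.18, SE 0.10), and Syngr1 (synaptogyrin 1) had 280.0 to 423 CPM in KO and 231 to 341 CPM in controls (log2 change 0.22, SE 0.16). Syngr3 (synaptogyrin 3) had 35.3, 90.3, 46.1, 50.4 and 48.2 CPM in KO and 16.2, 21.7, 24.7 and 35.2 CPM in control retina (log2 change 1.11, SE 0.32, edgeR adjusted p = 0.124). Its groups narrowly failed to overlap, with KO replicate 1 next to control replicate 4, and KO replicate 2 stood far above the other KO libraries.

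Syn1 (ENSMUSG00000037217, chrX:20860511-20921004, minus strand) encodes synapsin 1, a phosphoprotein that clusters reserve vesicles at conventional synapses. It had 134, 111, 164, 96.8 and 114 CPM in KO retina and 50.8, 24.6, 29.9 and 60.3 CPM in control retina, and the groups did not overlap. The means were 124 ± 26.3 CPM in KO and 41.4 ± 16.9 CPM in controls (SD, n = 5 and 4), a log2 change of 1.54 (SE 0.29) at an edgeR adjusted p of 0.038, or 2.90-fold. Without a filter on low counts the edgeR adjusted p was 0.0528, which misses the threshold. When 1 library was left out, the call was kept only without KO replicate 5 or control replicate 4, and in the other 7 omissions the edgeR adjusted p ran from 0.0542 to 0.0901. Syn2 had 3.24 to 10.2 CPM in KO and 0 to 5.84 CPM in control retina, and Syn3 had 1.44 to 6.11 CPM in KO and 0 to 4.43 CPM in control retina. Syn3 shares 1733 exonic bases with Timp3 on the opposite strand, and whether the counting used strand is not given in the sources used here.

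Slc17a7, the vesicular glutamate transporter VGLUT1 that fills vesicles of photoreceptors and bipolar cells, was the most abundant member. It had 4553, 4489, 4515, 3907 and 4111 CPM in KO retina and 3972, 5409, 4811 and 3860.2 CPM in control retina (log2 change -0.10, SE 0.11, edgeR adjusted p = 0.777), with overlapping groups. Rab3a, the vesicle GTPase that binds RIM at the active zone, had 471, 449.9, 604, 498 and 333 CPM in KO retina and 294, 316, 373 and 288 CPM in control retina (log2 change 0.53, SE 0.16, edgeR adjusted p = 0.139). Its groups overlapped through KO replicate 5. Rab3b and Rab3c stayed at or below 22.9 CPM in KO and 15.9 CPM in control retina.

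Ctbp2, which gives both the ribbon protein RIBEYE and the co-repressor CtBP2 from different starts, had 536, 525, 599, 571 and 454 CPM in KO retina and 429, 453, 435 and 342 CPM in control retina. The lowest KO value, 454 CPM, stood barely above the highest control value, 453 CPM, and the log2 change was 0.33 (SE 0.11, edgeR adjusted p = 0.18). A count per gene cannot separate the ribbon transcript from the other.

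None of the 8 active zone and priming genes passed the test with edgeR, DESeq2 or voom, and 0 had an unadjusted p under 0.05. Over all genes tested, edgeR called 1.66%, DESeq2 7.75% and voom 2.37%, and 14.2% had an unadjusted edgeR p under 0.05. With 8 genes, few or no calls would be met at those shares too. Rims2, the RIM scaffold of ribbon synapses, had 75.3 to 123 CPM in KO and 64.9 to 169.7 CPM in control retina (log2 change -0.089, SE 0.27), whereas Rims1 reached 14.1 CPM in KO and 4.50 CPM in control retina. Pclo (Piccolo, an active zone scaffold also found on ribbons) had 37.4 to 63.5 CPM in KO and 32.4 to 74.1 CPM in controls (log2 change 0.03, SE 0.28), and Bsn (Bassoon, which anchors ribbons) had 2.59 to 14.6 CPM in KO and 4.84 to 11.1 CPM in controls. The priming factors overlapped as well. Unc13b (Munc13-2) had 34.6 to 112 CPM in KO and 63.9 to 127 CPM in control retina (log2 change -0.28, SE 0.36), and Unc13a (Munc13-1) had 9.05 to 33.3 CPM in KO and 2.04 to 47.8 CPM in controls (log2 change 0.29, SE 0.73). Of the ELKS proteins, Erc2 had 9.95 to 22.3 CPM in KO and 16.9 to 34.8 CPM in control retina (log2 change -0.51, SE 0.31). Erc1 had 6.61, 11.9, 26.2, 12.1 and 13.9 CPM in KO and 0, 0, 0 and 5.56 CPM in control retina, so its groups did not overlap although it was not called. It shares 1919 exonic bases with the predicted gene Gm44317 on the opposite strand.

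**Figure D2:**
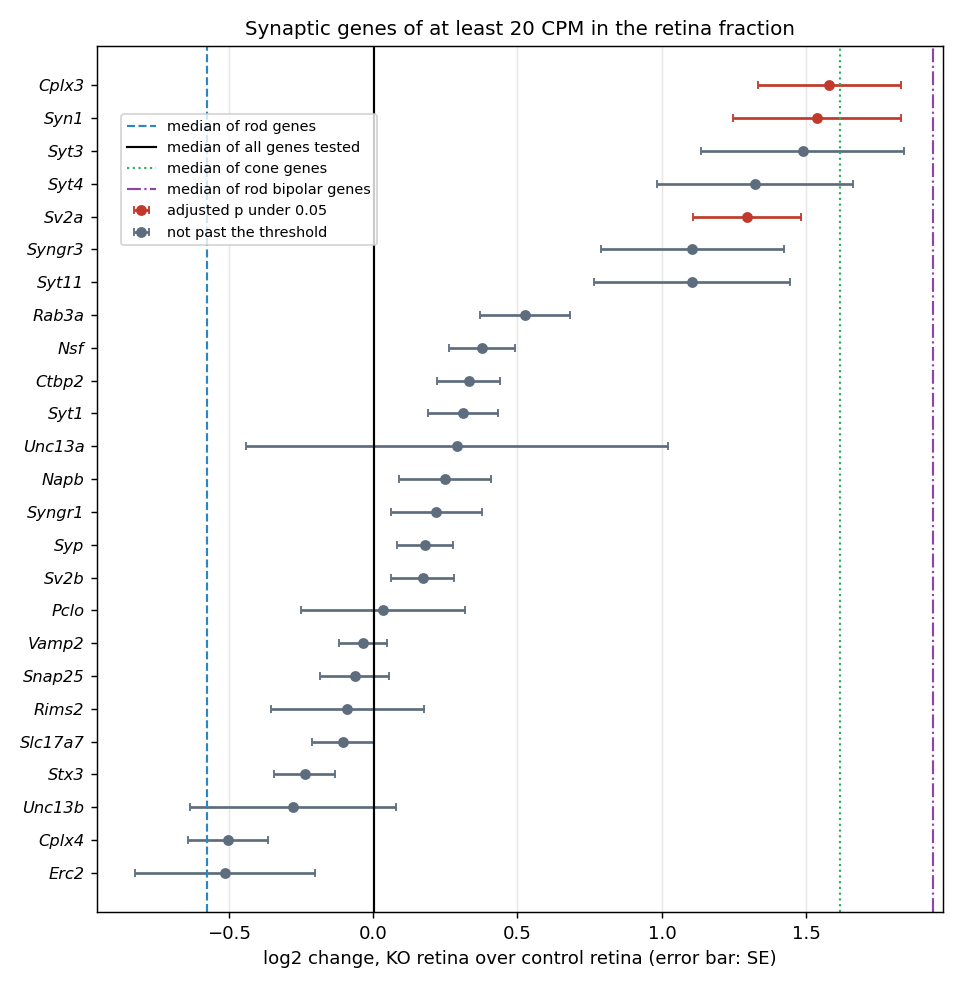
Log2 change of each synaptic gene with at least 20 CPM in a retina group, KO retina over control retina, with SE bars. Red points passed an edgeR adjusted p under 0.05 (Cplx3, Syn1 and Sv2a) and grey points did not, and vertical lines give the median changes of rod (-0.57), all tested (0.00), cone (1.62) and rod bipolar (1.94) genes.

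In all, 9 members (Cplx3, Sv2a, Syn1, Syt3, Syt4, Syt11, Syngr3, Erc1 and Ctbp2) stood higher in every KO retina library than in every control, and 0 stood lower. Over all genes tested, 8.71% had groups without overlap, 6.02% higher and 2.69% lower. Other cell type markers differed between the same libraries. Rod markers were lower, with 6 of 16 called lower, 0 higher, and a median log2 change of -0.57. Rod bipolar markers summed to 1083 to 2275 CPM in KO and 191 to 544 CPM in control retina, with 4 of 9 called higher and a median log2 change of 1.94. Cone bipolar markers summed to 1127 to 1622 CPM in KO and 348 to 713 CPM in control retina, with 4 of 9 called higher (median 1.53), and cone markers to 2719.7 to 6493 CPM in KO and 814 to 1853 CPM in control retina, with 4 of 11 called higher (median 1.62). Amacrine markers summed to 235 to 389 CPM in KO and 80.7 to 212 CPM in control retina, with 1 of 8 called higher (median 0.55). With the rod level as a covariate the log2 changes were 0.62 for Cplx3, 0.68 for Sv2a and 0.70 for Syn1, each at an edgeR adjusted p of 1, and no gene of the whole table was called. Among members of at least 20 CPM in a retina group, Cplx4, Stx3, Vamp2, Slc17a7, Rims2 and Unc13a changed sign in that fit. The log2 changes became 0.14 for Cplx4, 0.23 for Stx3, 0.20 for Vamp2, 0.28 for Slc17a7 and 0.82 for Rims2. Unc13a went the other way, from a positive change to -2.08. Summed rod markers ran from 133995 to 166119.9 CPM in KO and from 169195 to 246605 CPM in control retina, without overlap. The rod covariate thus largely follows genotype, and the fit cannot separate them. The part of these marker levels in the members' changes was not tested. In such bulk samples, fewer cells of a type and less RNA per cell cannot be told apart.

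Of 100 other genes of vesicle release and the ribbon synapse, 91 were tested in retina. Of these, 5 rose and 0 fell in KO retina, with a median log2 change of 0.18. Over all genes tested, 1.34% were called higher and 0.326% lower, with a median of 0.00. Sncb (beta-synuclein) had 247, 237, 272, 230.0 and 247 CPM in KO and 136, 146, 156 and 173 CPM in control retina (log2 change 0.65, SE 0.10, edgeR adjusted p = 0.0189). Snap47, a SNAP25-related SNARE, averaged 161 ± 16.9 CPM in KO and 101 ± 8.61 CPM in control retina (log2 change 0.64, edgeR adjusted p = 0.0303). Syt13, an atypical synaptotagmin, averaged 124 ± 13.7 CPM in KO and 33.7 ± 15.2 CPM in controls (log2 change 1.83, edgeR adjusted p = 0.0225). Cltb (clathrin light chain B) averaged 196 ± 64.8 CPM in KO and 55.5 ± 20.8 CPM in controls (log2 change 1.77, edgeR adjusted p = 0.0426).

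The authors' deposited table for retina listed 36 members, with 8 higher and 1 lower at an adjusted p under 0.05, where 5.58% of its 13330 genes were past that threshold. In the authors' deposited table the higher members were Syt3, Syt4, Syt11, Syngr3, Sv2a, Syn1, Rab3a and Cplx3. The lower one there was Cplx4, with a log2 change of -0.51 and an adjusted p of 0.00824 in the authors' deposited table. DESeq2 called those 9 members in the same directions, plus Nsf and Ctbp2 higher, where it called 7.75% of all genes. Limma voom called Cplx3, Sv2a and Syn1, where it called 2.37% of all genes.

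**Figure D3:**
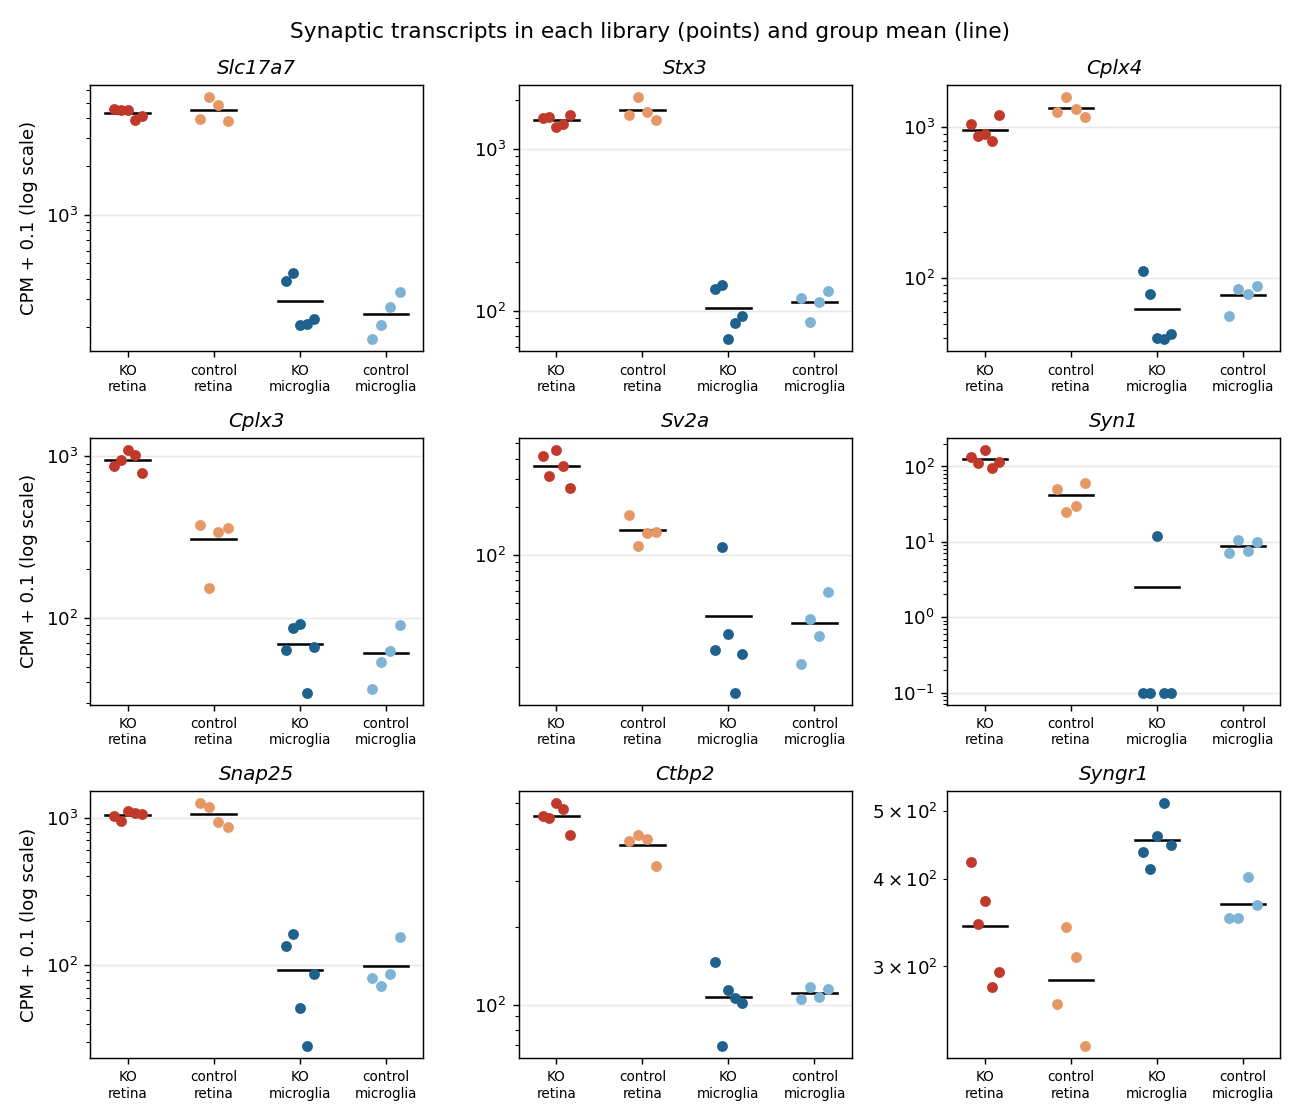
CPM plus 0.1 on log axes for 9 synaptic genes in every library (points) with the group mean (line), for KO retina, control retina, KO microglia and control microglia. Cplx3, Sv2a and Syn1 stand higher in KO retina than in control retina, where the Cplx3 means were 946 CPM in KO and 307 CPM in controls, and Syngr1 is the 1 gene of the 9 with a higher mean in microglia than in retina.

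Divided by exon length, the glutamate transporter and the ribbon forms of complexin and syntaxin led the members in control retina. Slc17a7 stood first at 837 CPM per kb and Cplx4 next at 680.3 CPM per kb, followed by Stx3 at 304 and Vamp2 at 304 CPM per kb. Syp (161), Snap25 (155), Rab3a (143), Nsf (113), Cplx3 (104) and Sv2b (100.1) were next, all in CPM per kb of control retina. Of the forms known from conventional synapses, Syn1 stood highest at 12.6 CPM per kb in control retina, above Rims2 at 10.4 and Pclo at 2.21 CPM per kb. Cplx1 had 3.21 CPM per kb there, Cplx2 0.866, Syn2 0.300 and Stx1a 0. In KO retina Cplx3 stood at 320.3 CPM per kb, above Stx3 at 265 and Vamp2 at 304 CPM per kb and below Cplx4 at 493 CPM per kb.

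Between the sorted fractions of control mice, 32 members were tested, and 18 were higher and 0 lower in retina than in microglia, where 40.2% of 15188 genes were called, 17.4% higher and 22.8% lower. The median log2 change of the members was 2.96, beside -0.02 over all genes tested. The largest called change was that of Slc17a7, with 3972, 5409, 4811 and 3860.2 CPM in control retina and 168, 205, 268 and 332 CPM in control microglia (log2 change 4.25, SE 0.27, edgeR adjusted p = 1.12e-05). Cplx4 followed at 4.14 (SE 0.20), then Rims2 at 4.06 (SE 0.74) and Stx3 at 3.99 (SE 0.20). The 16 rod markers had log2 changes of 4.14 to 4.64 in the same comparison. Cplx4, Slc17a7 and Pclo lay within that range, Rab3c lay above it, and the other 28 tested members were below it. Neither Pclo nor Rab3c was called by edgeR. Pclo had 8.45 CPM in control microglia replicate 4 and at most 0.517 CPM in the others, and without replicate 4 its log2 change was 8.13. Rab3c averaged 0.0184 CPM per kb in control microglia, so neither place is firm.

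Several members were more alike in both fractions than rod genes were. Syngr1 had 265, 341, 309 and 231 CPM in control retina and 352, 352, 402 and 367 CPM in control microglia (log2 change -0.32, SE 0.15, edgeR adjusted p = 0.134). Syt11 had 71.4, 24.2, 82.3 and 95.2 CPM in control retina and 33.5, 69.3, 68.1 and 81.6 CPM in control microglia (log2 change 0.15, SE 0.44), and Syt3 had 10.9, 11.9, 6.75 and 15.1 CPM in control retina and 22.6, 11.8, 6.57 and 6.77 CPM in control microglia (log2 change -0.05, SE 0.50). For none of these 3 did the difference pass the test. On the log2 scale Ctbp2 was higher in retina by 1.95 (SE 0.13, edgeR adjusted p = 1.84e-05), Sv2a by 1.96 (SE 0.33), Cplx3 by 2.37 (SE 0.38) and Nsf by 2.52 (SE 0.15), all called and all less than the rod markers. How much of the members' reads in microglia came with rod RNA was not tested.

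**Figure D4:**
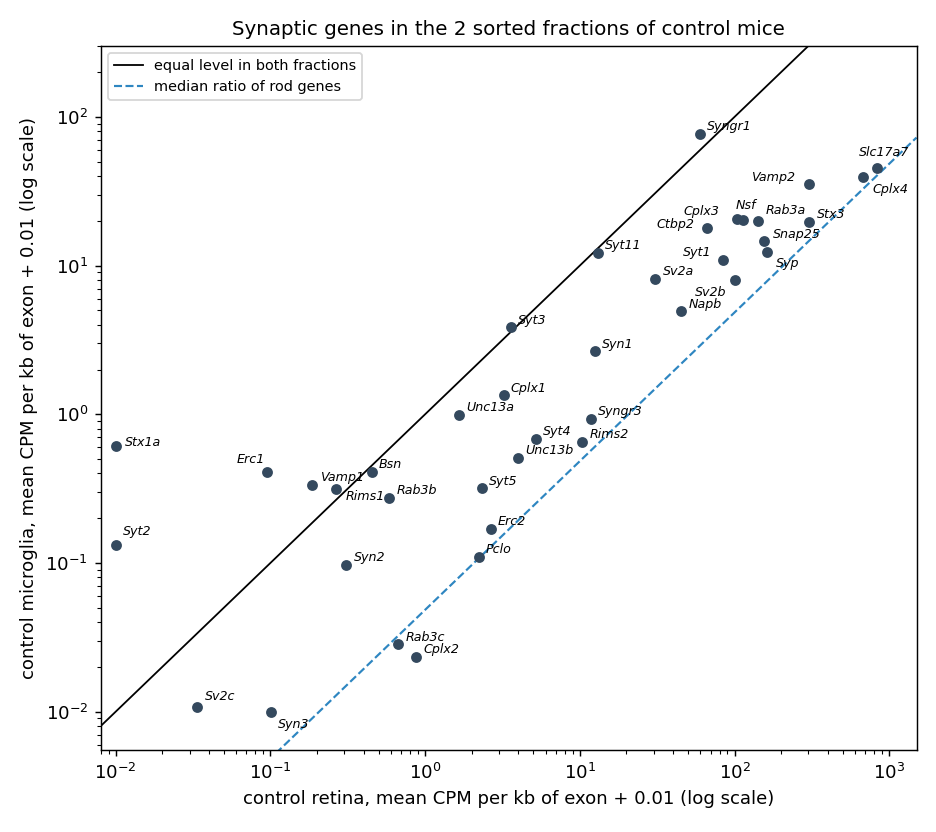
Mean CPM per kb of exon plus 0.01 of each synaptic gene in control retina (horizontal, log axis) and control microglia (vertical, log axis), with lines for equal levels and for the median ratio of the rod markers (log2 change 4.37). Slc17a7, Cplx4 and Pclo lie by the rod line, and Syngr1, Syt11 and Syt3 lie by the line of equal levels. The microglia level of Pclo rests mostly on control microglia replicate 4.

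In the wider list of 100 genes, 86 were tested between the control fractions, and 38 were higher and 15 lower in retina than in microglia. Over all genes tested there, 17.4% were called higher and 22.8% lower. By smallest p, the higher ones included Cabp4 (a calcium channel partner at photoreceptor terminals, log2 change 4.34), Pacsin1 (an endocytosis adaptor, 3.92) and Snap91 (a clathrin adaptor, 3.76). The lower ones were led by Rab3il1 (an exchange factor for Rab proteins, -7.41), Vamp8 (an endosomal SNARE, -1.86), Stx7 (an endosomal syntaxin, -3.04) and Mctp1, which had 0 reads in control retina and 5257 reads in control microglia. Vamp8 had 36.4, 39.9, 32.9 and 37.8 CPM in control retina and 156, 144, 119 and 130.2 CPM in control microglia.

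In microglia themselves no member passed the test between KO and control. Of the 39, 30 were tested and 0 were called, where 0.115% of 14835 genes were called (0.101% higher and 0.0135% lower), and 1 member had an unadjusted p under 0.05, beside 5.76% of all genes. That member was Syngr1, with 437, 414, 461, 513 and 448 CPM in KO microglia and 352, 352, 402 and 367 CPM in control microglia. All KO libraries stood above all controls, with means of 455 ± 36.9 CPM in KO and 368 ± 23.8 CPM in controls (SD, n = 5 and 4) and a log2 change of 0.30 (SE 0.09) at an edgeR adjusted p of 0.442, and DESeq2, which called 1.61% of all genes, called it at an adjusted p of 0.0128. It was the 1 member whose microglia groups did not overlap, where 3.3% of genes stood apart in that way, 1.89% higher and 1.41% lower. Limma voom called 0 members.

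The members that rose in KO retina were low in microglia and overlapped between genotypes. Cplx3 had 63.3, 86.4, 92.3, 34.6 and 66.4 CPM in KO microglia and 36.3, 53.4, 62.7 and 91.1 CPM in control microglia (log2 change 0.17, SE 0.33). Sv2a had 25.5, 113, 32.1, 13.8 and 24.0 CPM in KO microglia and 20.8, 39.8, 31.1 and 58.6 CPM in control microglia (log2 change 0.14, SE 0.59), with KO replicate 2 far above the rest. Syn1 had 0, 0, 11.9, 0 and 0 CPM in KO microglia and 7.03, 10.6, 7.51 and 9.75 CPM in control microglia (log2 change -1.87, SE 2.13). Thus 4 of 5 KO microglia libraries held no Syn1 read, while the remaining KO library stood above all controls, and without that library Syn1 was called lower in KO microglia (edgeR adjusted p = 0.0469). Among the higher members, Slc17a7 had 206 to 432 CPM in KO and 168 to 332 CPM in control microglia, and Nsf had 98.1 to 167 CPM in KO and 151 to 184 CPM in controls. On the log2 scale the microglia changes, KO over control, were 0.26 for Slc17a7 (SE 0.29), -0.28 for Nsf (SE 0.16), -0.73 for Syt1 (SE 0.36), -0.12 for Stx3 (SE 0.24), -0.055 for Vamp2 (SE 0.35) and -0.046 for Ctbp2 (SE 0.19), and none passed the test. In the list of 100 other genes, 80 were tested in microglia, with 0 called by edgeR, 1 by DESeq2 (1.61% of all genes) and 5 at an unadjusted p under 0.05 (5.76% of all genes). The smallest p belonged to Scamp5 (a secretory carrier protein), Syngr2, Atp6v0c (a subunit of the vesicular proton pump) and Rab3d, with 272 to 339 CPM of Scamp5 in KO and 210.0 to 249.9 CPM in control microglia. In the authors' deposited table for microglia, 0 of the 28 members listed were past an adjusted p of 0.05, where 0.592% of its 12841 genes were.

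Whether the genotype effect in retina differed from that in microglia was tested over all 18 libraries. Of 38 members tested, 0 were called, where 0.469% of 18128 genes were (0.392% higher and 0.0772% lower), and 5 had an unadjusted p under 0.05, beside 12.5% of all genes. DESeq2 called 4 (Cplx3, Nsf and Rims1 higher, Syn3 lower), where it called 6.01% of all genes. Its differences of 9.71 for Rims1 and -19.5 for Syn3 involve groups near 0. Rims1 averaged 0.0018 CPM per kb in KO microglia, and Syn3 had 0 in control microglia. Voom called 2 (Erc1 and Syn1 higher), where it called 0.8%. Its differences of 10.7 for Erc1 and 8.85 for Syn1 also involve groups near 0. Erc1 had 0 CPM in control retina apart from replicate 4, and Syn1 had 0 CPM in KO microglia apart from replicate 3. The difference of the log2 changes, retina effect minus microglia effect, was 1.45 for Cplx3 (SE 0.43, edgeR adjusted p = 0.16) and 0.70 for Nsf (SE 0.21, edgeR adjusted p = 0.165). For Sv2a it was 1.19 (SE 0.66, edgeR adjusted p = 0.501) and for Syn1 3.44 (SE 1.96, edgeR adjusted p = 0.517). The median difference was 0.42 over the members and 0.13 over all genes tested. Leaving out 1 library moved the members' median to between 0.20, without control microglia replicate 4, and 0.88, without control retina replicate 1. Without KO microglia replicate 2 the difference was called for Sv2a, without KO microglia replicate 3 for Syn1, and without control retina replicate 4 for Erc1. In the fit of all libraries, the calls in retina without calls in microglia do not show that the fractions differed. Of the 100 other genes, 94 were tested for this difference, with 0 called by edgeR or voom, 5 by DESeq2 (6.01% of all genes) and 11 at an unadjusted p under 0.05 (12.5% of all genes). The smallest p stood for Cltb, Atp6v0a1, Stxbp5l and Snap47.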

How the data were processed

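Libraries of 18 flow-sorted samples were grouped by fraction and genotype as labelled. The authors deposited raw counts per gene, in whole numbers, from RNA amplified with a SMARTer Ultra Low kit per the labels' protocols. The submitters' processing notes name DRAGEN, STAR 2.7.9a, Subread, featureCounts, edgeR and limma with the build GRCm38, without a role or order, and the strand setting of the counting is not given in the sources used here. The authors also deposited a table per knockout comparison with log2 fold changes, a likelihood ratio score and p-values, per the file headers. Of 55774 lines in the count table, 287 repeated an identifier with identical counts, 55487 genes were kept, and GENCODE M21 gave positions and exon lengths for 55227. Of the members, 14 share exonic bases with another gene. No sample column was unused and 0 pairs of libraries were identical.

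In R 4.3.3, low genes were removed by group (filterByExpr), libraries were scaled by TMM, and edgeR 4.0.16 fitted the counts with its quasi-likelihood test. A gene was called where p, adjusted by Benjamini-Hochberg over all genes tested, was under 0.05, with 9 libraries per knockout comparison, 8 control libraries between fractions and 18 for the difference of effects. The script was tested on simulated counts. CPM in the text use TMM factors of all 18 libraries, CPM per kb the exon length of the gene, and log2 changes come from each comparison's own fit, with an SE of the log2 change over the root of F. Promoter sequences are from RefSeq on GRCm38.p6. The 39 members, the lists and the alternatives were chosen with earlier results of these data known. All members were named, and of the 100 other genes those called, or else those with the smallest p, 4 per direction where more than 6 were called. Some genes that this rule takes are not reported here. Log2 changes between genotypes are given for members of at least 20 CPM in a retina group, of at least 100 CPM in a microglia group, and for Cplx3, Sv2a, Syn1 and Syt1. Alternatives were DESeq2 1.42.0 and its size factors, limma 3.58.1 voom, no filter, a filter of 1 CPM in 4 libraries, a replicate block, the rod level or the count of detected genes as a covariate, a fit of all 18 libraries and each library left out.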

Additional observations from a re-analysis of the deposited data

Results flagged for a closer look

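A library stood far from the others of its group in 10 of 136 groups of 4 or 5 libraries checked (7.35%), by Dixon's test at the 95% level. Chance gives about 5% where values are normally distributed. The CPM of scarce genes, at 0 in many libraries, are not, so that share is no exact baseline here. Of the 10 groups, 1 was in KO retina, 3 in control retina, 4 in KO microglia and 2 in control microglia.

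Cplx3 had 153 CPM in control retina replicate 2, far below the other controls, and its value without that library stands in the report. Syngr3 had 90.3 CPM in KO retina replicate 2. Syn3 had 4.43 CPM in control retina replicate 1 and Erc1 5.56 CPM in control retina replicate 4, both among controls at or near 0.

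In KO microglia, Stx1a had 6.50 CPM and Syn2 9.20 CPM in replicate 1, Sv2a had 113 CPM in replicate 2, and Syn1 had 11.9 CPM in replicate 3, all far above the rest of their group. In control microglia, replicate 4 stood above the others with 161 CPM of Syt1 and 8.45 CPM of Pclo. The cause was not tested for any of these.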

How the results depend on the processing

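Over the single-gene log2 changes and the alternatives other than leaving out a library, 423 values kept their direction and side of the threshold, 18 became significant, 13 lost significance and 19 changed sign. Cplx3, Sv2a and Syn1 kept a positive retina change under every alternative run. The number of genes called in KO retina, 255, became 120 without a filter, 1188 with DESeq2, 2 with the count of detected genes as a covariate and 0 with the rod level, and members called higher became 10 with DESeq2 (1 lower), 0 with either covariate and 1 (Cplx3) in a fit of all 18 libraries. In KO microglia the 17 genes became 8 without a filter, 239 with DESeq2 (1 member higher), 26 with voom, 5 with the detected-gene covariate and 32 in the fit of all 18. For the difference of effects the 85 genes became 1090.0 with DESeq2 (3 members higher, 1 lower) and 145 with voom (2 members higher). In the separate comparison of the control fractions, voom called 1 member (Erc1) lower in retina than in microglia. The causes were not tested.

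Signs changed mostly with covariates. The count of detected genes did not overlap between genotypes in either fraction, nor did summed rod markers in retina. These fits cannot separate such covariates from genotype. In retina, with the rod level, Stx3 had 0.23, Vamp2 0.20, Rims2 0.82, Unc13a -2.08, Cplx4 0.14 and Slc17a7 0.28. With the detected-gene covariate, Snap25 had 0.025, Stx3 0.056, Vamp2 0.14, Rims2 0.35, Unc13a -0.86 and Slc17a7 0.26, and Vamp2 had 0.0047 in the fit of all 18. In microglia, that covariate gave 0.48 for Stx3, 0.43 for Vamp2, -0.058 for Cplx3 and 0.0088 for Ctbp2, and voom gave -0.11 for Sv2a.

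Same-numbered libraries did not deviate together (correlations of -0.071 to 0.096 over genes), so the main fits did not pair them. Replicate 1 lacked Y-linked reads in every group, but Xist in control replicate 1 differed between the fractions. Whether same numbers mark shared mice was therefore not settled, and the main fits treated all libraries as independent. With the replicate block, 0 genes and 0 members were called in KO retina, 2 genes in KO microglia and 9 for the difference of effects, and Sv2a in microglia had -0.023.

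Leaving out 1 library at a time gave 96 to 342 genes and 1 to 4 members higher in KO retina, with 96 and 1 without KO replicate 3, and 4 to 21 genes and 0 to 1 members lower in KO microglia. It gave 51 to 143 genes and 0 to 1 members higher for the difference of effects. Between the control fractions it gave 0 to 1 members lower in retina than in microglia, the 1 without control retina replicate 4. Log2 changes that crossed 0 ranged, in KO retina, over -0.13 to 0.051 for Snap25, -0.069 to 0.029 for Vamp2, -0.27 to 0.22 for Rims2, -0.072 to 1.13 for Unc13a, -0.15 to 0.00069 for Slc17a7 and -0.12 to 0.30 for Pclo. In KO microglia they ranged over -0.25 to 0.0090 for Stx3, -0.29 to 0.19 for Vamp2, -0.66 to 0.45 for Sv2a, -0.015 to 0.44 for Cplx3 and -0.18 to 0.080 for Ctbp2, and between fractions over -0.086 to 0.43 for Syt11. At these depths 3 counts stood for 0.0631 to 0.0929 CPM.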
